A study of Mus musculus with 76 samples.

Results

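The genes described here are 8 imprinted genes that hypothalamic neurons are known to use, namely *Peg3*, *Ndn*, *Magel2*, *Snrpn*, *Nnat*, *Dlk1*, *Gnas* and *Impact*. They were taken by name from the 56980 genes of the deposited count table, and each symbol matched 1 Ensembl identifier. Their level is given in CPM, the counts of a gene in a cell per 1000000 counts of that cell, and as the share of cells with at least 1 count. No measured value entered the choice, although the list was drawn up with earlier results of these data known.

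The cells were 76 neurons of the mouse hypothalamus, sequenced by Patch-seq, which takes up what a recorded neuron holds through the recording pipette and makes a library of each cell. The study's results name the mice PomcCreERT2;tdTomato;Pomc-eGFP, whereas the methods for this experiment name them PomcCreERT2;tdTomato. Unless stated otherwise in the study the mice were male, and all received tamoxifen at 12 weeks of age for 5 days. They then ate chow diet (CD) or high-fat diet (HFD) for 6 months, 5 mice on each, in 3 independent experiments. Cells labelled Pomc+ carried the eGFP signal (23 on CD, 19 on HFD). Cells labelled Ghost lacked it (15 on CD, 19 on HFD). In these mice the *Pomc* promoter drives both the tamoxifen-dependent Cre, which switches on the lasting tdTomato mark, and the eGFP reporter. The labels name neither the mouse nor the experiment of a cell, so the cells of a label on a diet were treated as 1 sample, cells gave no p-value, and a difference between groups has no replicate check.

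An imprinted gene is read mainly from the copy inherited from either the mother or the father. Methylation of cytosines in CpG dinucleotides, set in the germ line at control regions, marks which parent a copy came from. Imprinted genes often lie in clusters that share a control region. Many are active in the brain, and several act in growth, feeding and the hypothalamic control of hormones. The reads were not assigned to a parental copy in these files, so the values are totals over both.

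The positions follow GENCODE M21 on GRCm38, the build that the submitters' processing notes also name. The annotation used for counting is not given and may differ from M21, so the exon overlaps and exon lengths given here may not match it. *Ndn* (chr7:62346569-62350262, plus strand) and *Magel2* (chr7:62377010-62381640, plus strand) lie 26.7 kb apart in the mouse counterpart of the Prader-Willi region, and *Snrpn* (chr7:59982495-60140219, minus strand) lies 2.21 Mb from *Ndn* on the same chromosome. *Peg3* (chr7:6703892-6730431, minus strand) lies on the same chromosome outside this region. *Nnat* (chr2:157560078-157562522, plus strand) and *Gnas* (chr2:174284320-174346744, plus strand) share chromosome 2 but not a cluster. *Dlk1* lies at chr12:109452823-109463336 on the plus strand, and *Impact* on a chromosome of its own. All 8 are protein-coding. The library kits do not mark the strand, and how reads on shared bases were counted is not given in the sources used here. This touches *Snrpn*, which shares 34.1% of its exonic bases with other genes, and *Gnas*, which shares 22% with genes on the opposite strand. *Snurf* is read from the same transcripts as *Snrpn* and all of its exonic bases lie within *Snrpn* exons, and it had 0 counts in all 76 cells. The *Snrpn* values are therefore uncertain as a measure of *Snrpn* alone.

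RefSeq start sites on GRCm38.p6 were matched by symbol for 7 of the 8 genes, with 13 windows of 250 bases before a start. The windows below are those of the 2 genes that have a single RefSeq start and no annotated exon inside the window. They are also the 2 genes that most often stood at 0 in deeply sequenced cells, as described further on. Both are written 5′ to 3′ on the gene's strand, and the capitals mark the CpG dinucleotides, the kind of site that can be methylated. Whether these windows are methylated is not known from these data.
Magel2, chr7:62376729-62376978, plus strand: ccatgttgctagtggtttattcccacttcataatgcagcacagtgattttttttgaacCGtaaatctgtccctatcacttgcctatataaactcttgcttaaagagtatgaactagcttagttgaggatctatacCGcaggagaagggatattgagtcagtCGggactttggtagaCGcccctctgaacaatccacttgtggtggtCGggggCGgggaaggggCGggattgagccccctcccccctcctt
Dlk1, chr12:109452573-109452822, plus strand: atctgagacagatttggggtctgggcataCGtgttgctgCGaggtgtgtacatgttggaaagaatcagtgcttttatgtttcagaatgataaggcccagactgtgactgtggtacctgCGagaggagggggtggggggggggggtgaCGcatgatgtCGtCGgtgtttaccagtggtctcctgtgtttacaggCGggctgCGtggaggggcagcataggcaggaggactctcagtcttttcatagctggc

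The *Magel2* window holds 7 CpG and the *Dlk1* window 8, near the median of 6 CpG over 32841 windows of the same length. The *Magel2* CpGs crowd towards the start site, while those of *Dlk1* are spread along the window. The other windows ranged more widely. *Peg3* had 8 CpG, *Ndn* 5, *Nnat* 12, the 4 windows of *Snrpn* 2 to 4, and the 4 windows of *Gnas* 14 to 29. The files hold no methylation, so these counts describe the sequence only.

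Total counts per cell ran from 4057 to 1452605 (median 322652), and 5 cells had under 1000 genes with a count. Counts are of reads without molecular identifiers, so every interval below covers counting error only. At least 1 of 7 neuronal markers (*Snap25*, *Syt1*, *Tubb3*, *Map2*, *Elavl4*, *Rbfox3* and *Stmn2*) was counted in 74 of the 76 cells. The summed CPM of 5 markers of Pomc neurons (*Pomc*, *Cartpt*, *Tbx3*, *Isl1* and *Prdm12*) was above 0 in 33 of 34 Ghost and 42 of 42 Pomc+ cells, with means of 7169 and 10965. The AgRP neuron markers *Agrp* and *Npy* were counted in 44.1% of Ghost and 14.3% of Pomc+ cells. Markers of other cells were present too and moved with the groups. The summed CPM of 5 astrocyte markers ranged from 0 to 3922 in Pomc+ cells (mean 876) and from 0 to 1609 in Ghost cells (mean 297). All 5 of 5 markers had the lower mean in Ghost cells, beside 56.2% of all genes tested. The summed CPM of 6 microglial markers averaged 192 and 1248 in Pomc+ cells on CD and HFD, with highest cells at 1784 and 9736. In Ghost cells it averaged 109.8 and 973 on CD and HFD, with highest cells at 801 and 6013. All 6 of 6 markers had the higher mean on HFD in both labels. Of all genes tested, 46.3% in Pomc+ cells and 49.3% in Ghost cells had the lower mean on HFD. No oligodendrocyte, astrocyte or microglial list was at 0 throughout, and of 3 tanycyte and ependymal markers *Rax* had 0 counts in every cell while *Col23a1* was counted in 6 cells and *Ccdc153* in 1. The sum of these 3 was above 0 in 14.7% of Ghost cells (highest 178 CPM) and 2.38% of Pomc+ cells (highest 6.35 CPM).

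All 8 genes passed a filter of at least 5 counts in at least 3 cells, which left 12265 genes. Levels were also divided by exon length, so that genes can be set beside each other. This length merges all annotated exons of a gene, from 1829 bases in *Nnat* to 11186 in *Gnas* and 13324 in *Peg3*. It can exceed the length of the transcripts present, which was not determined, so the order depends on the annotation. On this scale the mean level over all cells was highest for *Ndn* at 297 CPM per kb. *Snrpn* followed at 138 CPM per kb, *Impact* at 103 CPM per kb, *Nnat* at 77.9 CPM per kb and *Peg3* at 64.6 CPM per kb. *Magel2* at 31.3 CPM per kb and *Dlk1* at 23.1 CPM per kb stood close together, and *Gnas* was lowest at 4.26 CPM per kb. *Ndn* led and *Gnas* was last in each of the 4 groups, while *Magel2* and *Dlk1* changed places between groups, *Magel2* being the higher in Pomc+ HFD cells (67.4 against 23 CPM per kb) and the lower in Ghost HFD cells (14.8 against 23.1 CPM per kb). In *Nnat* the mean ran from 38.6 CPM per kb in Ghost CD cells to 117 CPM per kb in Ghost HFD cells, so that its place in the order changed with the group. In each gene the cells ran from 0 to far above the mean, and neighbours in this order overlapped.

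**Figure D1:**
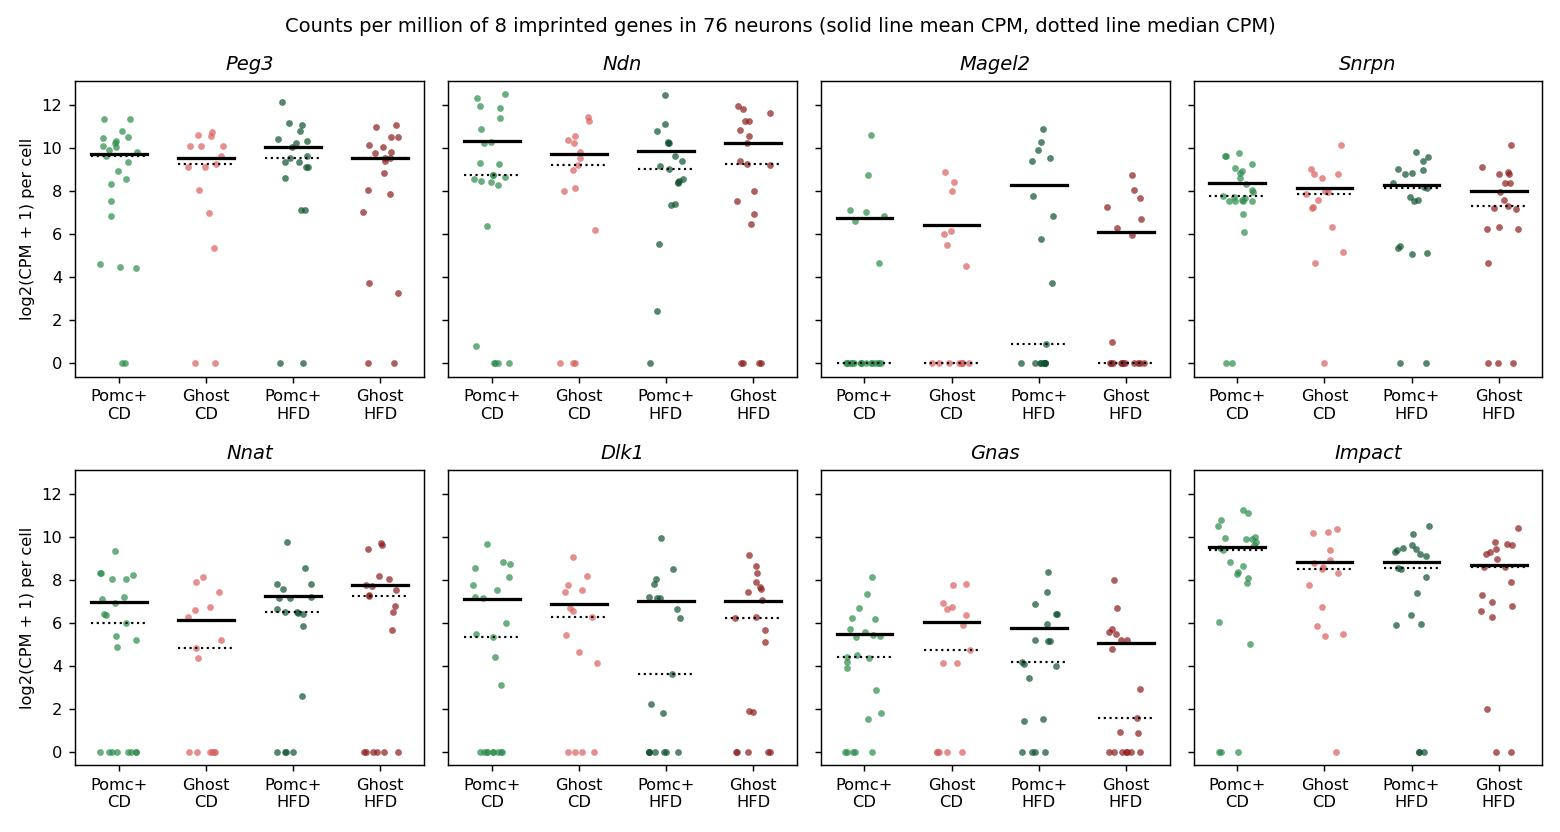
Level of each of the 8 imprinted genes in each of 76 neurons, as log2(CPM + 1), by label and diet. Points are cells, solid lines the mean CPM and dotted lines the median CPM of the group on the same scale. In every gene the 4 groups overlap, each group holds at least 1 cell at 0, and in *Magel2* the mean lies far above a median at or near 0.

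The share of cells with a count differed more between genes than between labels. *Peg3* and *Snrpn* were each counted in 68 of the 76 cells, *Impact* in 67 and *Ndn* in 64. *Gnas* was counted in 55 cells, *Nnat* in 52, *Dlk1* in 51 and *Magel2* in only 32. By label, *Magel2* was counted in 44.1% of Ghost cells (95% exact Clopper-Pearson interval 27.2 to 62.1) and 40.5% of Pomc+ cells (25.6 to 56.7). *Gnas* had the widest gap in the other direction, 64.7% of Ghost cells (46.5 to 80.3) against 78.6% of Pomc+ cells (63.2 to 89.7). Drawn down to 40000 counts a cell, which 29 Ghost and 39 Pomc+ cells reach, the shares of *Gnas* were 55.2% and 53.8%. The same cells before thinning gave 72.4% and 84.6%, and at least 5 counts were found in 47.1% of all Ghost and 57.1% of all Pomc+ cells. After thinning the median number of genes per cell was 2031 in Ghost and 2471 in Pomc+ cells. *Dlk1* leaned the other way, 73.5% of Ghost cells (55.6 to 87.1) against 61.9% of Pomc+ cells (45.6 to 76.4), and 65.5% against 51.3% after thinning. The intervals of the 2 labels overlapped for each of the 8 genes.

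**Figure D2:**
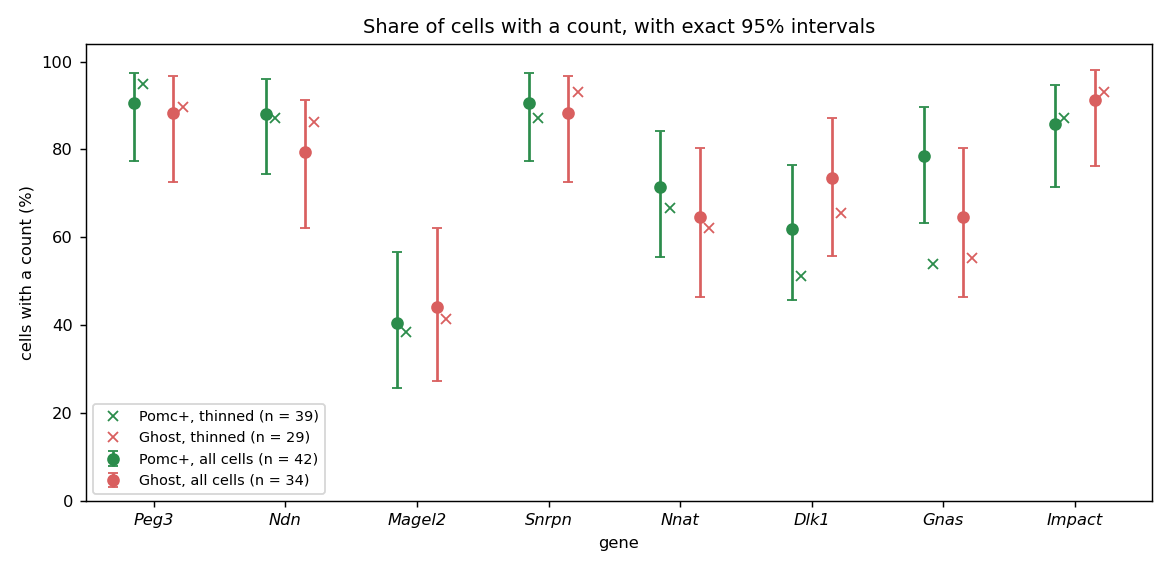
Share of cells with at least 1 count of each gene, by label over both diets, with exact 95% Clopper-Pearson intervals (circles and bars), and the share after thinning each cell to 40000 counts (crosses). The intervals of Ghost and Pomc+ overlap for every gene, and *Magel2* is lowest in both labels.

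Cells at 0 were also found among those sequenced deeply. Of the 38 cells with at least 328931 counts, 18 had 0 counts of *Magel2* and 10 had at least 100 CPM. For *Dlk1* 10 of these deep cells were at 0 and 19 had at least 100 CPM. In *Nnat* 5 were at 0 and in *Gnas* 4, but only 3 of the 38 reached 100 CPM of *Gnas*. The remaining genes were at 0 in 1 to 3 deep cells. The deepest cell with 0 *Magel2* was Pomc+ CD cell 631, whose 1452605 counts allow at most 2.07 CPM. The deepest cell with 0 *Dlk1* was Ghost HFD cell 695 (at most 2.53 CPM), and the deepest with 0 *Nnat* was Ghost HFD cell 637 (at most 2.30 CPM). *Magel2* and *Dlk1* thus had at least 100 CPM in some deep cells and no count in others. The limits in CPM cover the counting of reads only, and a transcript lost before sequencing would also give 0. Deep cells were chosen by total counts alone, and Ghost HFD cell 655, at 0 for both genes, had only 1257 genes with a count.

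*Magel2* encodes a MAGE-family protein that works with a ubiquitin ligase in endosomal recycling. Its median was 0 in Pomc+ CD cells, Ghost CD cells and Ghost HFD cells and 0.866 CPM in Pomc+ HFD cells. The highest cells stood at 1549.9 CPM in Pomc+ CD, 474 CPM in Ghost CD, 1878 CPM in Pomc+ HFD and 439 CPM in Ghost HFD. The 3 cells at 1000 CPM or more were all Pomc+, 1 on CD and 2 on HFD, while lower counted cells of the 4 groups overlapped. Mean *Magel2* was 108 CPM in Pomc+ CD cells, 85.6 CPM in Ghost CD cells, 312 CPM in Pomc+ HFD cells and 68.6 CPM in Ghost HFD cells. These means rest on few cells, since 1 cell, number 632, gave 62.3% of the *Magel2* sum of Pomc+ CD cells and 3 cells gave 69% of that of Pomc+ HFD cells.

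*Ndn* encodes necdin, a MAGE-family protein of post-mitotic neurons. Its median was 431 CPM in Pomc+ CD, 599 CPM in Ghost CD, 532 CPM in Pomc+ HFD and 623 CPM in Ghost HFD cells. The highest cells reached 5812, 2816, 5688 and 3994 CPM in the same order. Medians were thus a little higher in Ghost cells on both diets, whereas the mean was 1299 CPM in Pomc+ CD cells against 846 CPM in Ghost CD cells. On HFD the mean was 935 CPM in Pomc+ cells against 1213 CPM in Ghost cells. The highest 3 of the 23 Pomc+ CD cells held 50.3% of that group's *Ndn*.

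*Snrpn* encodes SmN, a splicing protein of neurons. Among the 3 genes from the Prader-Willi region its group means were the most even, at 329 CPM (Pomc+ CD), 287 CPM (Ghost CD), 313 CPM (Pomc+ HFD) and 257 CPM (Ghost HFD). The medians were 217, 234, 285 and 158 CPM, and the highest cells 881, 1129.6, 897 and 1137 CPM. The groups covered almost the same range.

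*Peg3* encodes a large zinc-finger protein expressed from the paternal copy. Its means were 849.7 CPM (Pomc+ CD), 739.7 CPM (Ghost CD), 1076 CPM (Pomc+ HFD) and 756 CPM (Ghost HFD), and its medians 799, 618, 745 and 747 CPM. The highest cell, Pomc+ HFD cell 639 at 4532 CPM, had only 818 genes with a count and gave 22.2% of its group's sum. The highest cells of the other groups stood at 2677, 1717 and 2149 CPM, and all 4 groups overlapped.

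*Nnat* encodes neuronatin, a small protein of the endoplasmic reticulum linked to calcium handling. Its median was 62.9 CPM in Pomc+ CD, 28 CPM in Ghost CD, 91.4 CPM in Pomc+ HFD and 151 CPM in Ghost HFD cells. The highest cells stood at 649, 282, 880.2 and 845 CPM. Ghost CD cells were the lowest group and Ghost HFD cells the highest by both median and mean (70.6 and 214 CPM), with 4 of 15 and 11 of 19 cells at 100 CPM or more, although the cells overlapped. Pomc+ cells lay between, with means of 124 CPM on CD and 150.1 CPM on HFD.

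*Dlk1* encodes a membrane protein related to the Notch ligands. Its means lay within 117 to 139 CPM in all 4 groups, and the medians were 39.7 CPM (Pomc+ CD), 77.1 CPM (Ghost CD), 11.3 CPM (Pomc+ HFD) and 73.1 CPM (Ghost HFD). The highest cells were at 809, 541, 1003 and 577 CPM. Ghost cells had the higher median on both diets. The means were lower in Ghost cells on CD (117 against 139 CPM) and nearly equal on HFD (130.8 in Ghost against 130.2 CPM in Pomc+ cells).

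*Gnas* encodes the stimulatory G protein alpha subunit and other products of the same locus, which are imprinted differently. It had 1354 counts in all, the fewest of the 8. Its means were 44.4 CPM (Pomc+ CD), 64.4 CPM (Ghost CD), 53.7 CPM (Pomc+ HFD) and 32.1 CPM (Ghost HFD), and its medians 20.6, 25.4, 17 and 1.98 CPM. The highest cells were at 283, 227, 333 and 255 CPM, so the groups overlapped.

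*Impact* encodes a cytoplasmic protein that restrains the GCN2 kinase. Its means were 739.7 CPM (Pomc+ CD), 456 CPM (Ghost CD), 454 CPM (Pomc+ HFD) and 413 CPM (Ghost HFD), and its medians 680.0, 360.0, 375 and 388 CPM. The highest cells stood at 2484, 1339.8, 1454 and 1387 CPM. Pomc+ CD cells were thus the highest group and the other 3 lay close together, with overlap among all cells.

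The first comparison asks how the 8 genes stood in cells without the eGFP signal of the *Pomc* reporter against those with it. Over both diets 7 of the 8 genes had the lower mean in Ghost cells, against 56.2% of all 12265 genes tested, and *Nnat* was the exception under CPM. The median log2 ratio was -0.18 for the 8 genes and -0.15 for all genes, so as a group they lay near the background. In CPM *Magel2* alone was past 2-fold, 1 of 8 against 42.5% of all genes past it in either direction. Ghost cells averaged 76.1 CPM of *Magel2* and Pomc+ cells 200.5 CPM, a ratio of 0.38 that ran from 0.319 to 0.477 with 1 cell left out. The summed counts of *Magel2* gave 86.5 CPM for Ghost (exact Poisson interval 81.6 to 91.5) and 218 CPM for Pomc+ (212 to 225). These intervals cover the counting of reads only and leave out the spread between cells, so they do not measure the difference between labels. The share of cells with *Magel2*, given above, did not follow this gap. Among the cells with a count the medians were closer than the means, 103 CPM in Ghost and 139.7 CPM in Pomc+ cells. The 3 highest cells held 55.4% of the *Magel2* sum of Pomc+ cells and 48.7% of that of Ghost cells.

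The other 7 ratios over both diets ran from 0.71 in *Impact*, 0.79 in *Peg3* and 0.84 in *Snrpn* to 1.11 in *Nnat*. Ghost cells averaged 432 CPM of *Impact* and Pomc+ cells 610.5 CPM. For *Peg3* the averages were 749 CPM (Ghost) and 952 CPM (Pomc+). Both stayed lower in Ghost cells without any 1 cell and under every other scaling. *Ndn*, *Dlk1* and *Gnas* lay between 0.92 and 0.95, and leaving out 1 cell turned each of them above 1 (*Ndn* 1.03 without Pomc+ CD cell 665, *Dlk1* 1.09 without Pomc+ HFD cell 654, *Gnas* 1.11 without Pomc+ HFD cell 645). They also moved the other way, *Gnas* to 0.44 without the 7 genes counted in every cell and *Dlk1* to 0.49 and *Ndn* to 0.60 in the normalized values. By medians over cells *Dlk1* (2.50) and *Ndn* (1.41) were higher in Ghost cells. *Nnat* lay below 1 without Ghost HFD cell 655 (0.957) and in the deposited normalized values (0.80). In those normalized values all 8 genes were lower in Ghost cells, where the median of all genes was also lower, at -0.64 on the log2 scale. The astrocyte marker sum was also lower in Ghost cells, as given above, and its part in these differences was not tested. Across cells that sum had Spearman coefficients of -0.04 to 0.28 with the 8 genes.

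Within blocks of cell numbers, which run between changes of diet and whose meaning the labels do not state, 6 blocks held at least 3 cells of each label. *Dlk1* was lower in Ghost cells in 5 of the 6 blocks, *Ndn*, *Snrpn*, *Nnat* and *Impact* in 4, *Peg3* and *Gnas* in 3, and *Magel2* in only 2. The *Magel2* ratio ran from 0.0647 in the block of cells 630 to 636 to 9.70 in that of cells 699 to 712. Pomc+ cells averaged 563 CPM of *Magel2* in block 1, 397 CPM in block 2 and 577 CPM in block 4, and no more than 71.4 CPM in the others. The low *Magel2* ratio was thus found in blocks 1 and 2 and not in the other 4. Taken within blocks over both diets it was 0.31.

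On CD, 7 of the 8 genes had the lower mean in Ghost cells, against 55.2% of all genes, and none passed 2-fold, against 56.8% of all genes in either direction. *Nnat* had the lowest ratio, 0.57, followed by *Impact* at 0.62 and *Ndn* at 0.65. All 3 stayed below 1 without any 1 cell, and their ratios within blocks were 0.52, 0.62 and 0.63. *Gnas* was the exception at 1.45, but it was 0.41 once the genes counted in every cell, which take 43.7% of all counts, were left out of the total. *Magel2* stood at 0.79 and turned to 2.0 without Pomc+ CD cell 632 and to 1.08 without the genes counted in every cell. *Dlk1* stood at 0.84 and turned to 1.08 without Pomc+ CD cell 660, and *Peg3* and *Snrpn* both stood at 0.87. In the deposited normalized values 6 of the 8 genes were past 2-fold, all lower in Ghost cells, against 62.3% of all genes past it in either direction and a median of all genes at -0.74 on the log2 scale. These were *Nnat* (0.24), *Ndn* (0.27), *Impact* (0.37), *Dlk1* (0.44), *Magel2* (0.47) and *Peg3* (0.497). By medians over cells *Ndn* (1.39) and *Dlk1* (1.94) were instead the higher in Ghost cells.

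On HFD, 5 of the 8 genes had the lower mean in Ghost cells, against 57% of all genes. *Magel2* was again past 2-fold, 1 of 8 against 56.2% of all genes past it in either direction, with a ratio of 0.22 that ran from 0.154 to 0.305 with 1 cell left out. Its ratio was 0.148 in the block of cells 637 to 657 and 1.13 in that of cells 713 to 720. *Gnas* followed at 0.60, with means of 32.1 CPM in Ghost and 53.7 CPM in Pomc+ cells. Its ratio depended on the setting and was past 2-fold in several, at 0.368 without Ghost HFD cell 698, 0.36 from summed counts, 0.40 in the normalized values, 0.30 within blocks and 0.12 by medians over cells. *Peg3* stood at 0.70, and at 0.855 without Pomc+ HFD cell 639. It turned in 1 of 6 settings, to 1.02 from summed counts. Medians over cells, which are not among these 6 settings, gave 1.003. Its ratio was 0.603 in cells 637 to 657 and 1.30 in cells 713 to 720. *Snrpn* stood at 0.82 and turned in 2 of 6 settings, reaching 1.02 after thinning to 40000 counts. *Nnat* (1.43) and *Ndn* (1.30) were higher in Ghost cells, and both stayed so without any 1 cell and under each of the 3 scalings, although *Nnat* was at 0.86 from summed counts. The 2 blocks with at least 3 cells of each label went opposite ways for both genes. The *Nnat* ratio was 1.48 in cells 637 to 657 and 0.122 in cells 713 to 720, and the *Ndn* ratio was 1.34 and 0.325. *Impact* stood at 0.91, and at 1.02 without the genes counted in every cell. *Dlk1* had nearly equal means (ratio 1.0), but this rested on single cells and on the measure. It ran from 0.814 without Ghost HFD cell 643 to 1.60 without Pomc+ HFD cell 654, and it was 0.50 in the normalized values and 6.49 by medians over cells.

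**Figure D3:**
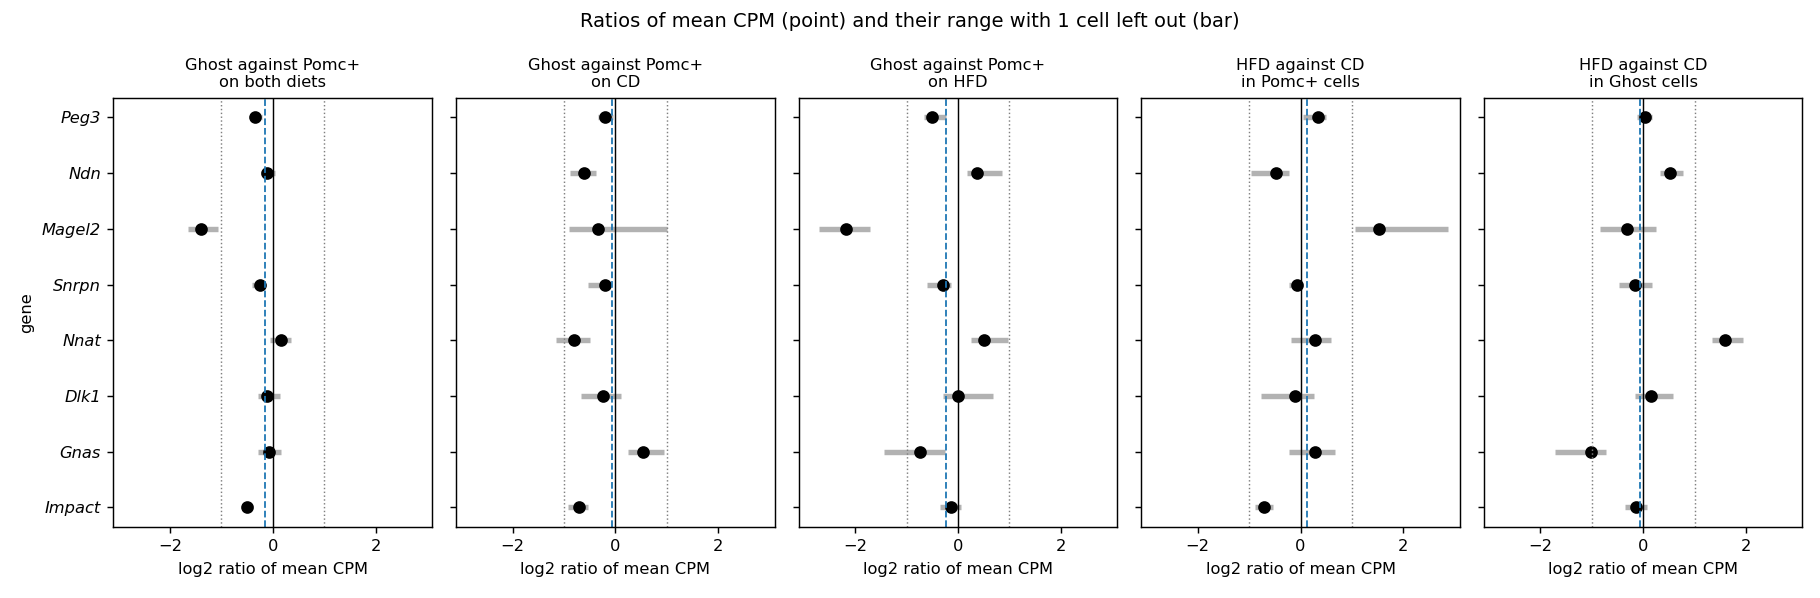
Log2 ratio of mean CPM of each gene (points) in 5 comparisons, with bars from the lowest to the highest value when 1 cell is left out. Dotted lines mark 2-fold and the dashed line the middle of all genes tested. *Magel2* lies past 2-fold in Ghost against Pomc+ cells over both diets and on HFD and in Pomc+ cells between diets, and *Nnat* and *Gnas* do so in Ghost cells between diets.

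The diet comparisons ask what 6 months of HFD changed within each label. Each block of cell numbers holds a single diet, so diet and block cannot be told apart. In Pomc+ cells 4 of the 8 genes had a lower mean on HFD, against 46.3% of all genes. *Magel2* was higher on HFD by 2.88-fold, the only 1 of 8 past 2-fold, against 51.4% of all genes past it in either direction. The ratio was 2.08 without Pomc+ HFD cell 654 and 7.31 without Pomc+ CD cell 632, and 1.77 from summed counts. *Impact* was lower on HFD at 0.61 and *Ndn* at 0.72, and both stayed lower without any 1 cell and under each of the 3 scalings (both at 0.42 in the normalized values). *Ndn* was less even than *Impact*, at 0.97 without the genes counted in every cell, and its median was the higher on HFD (532 against 431 CPM, ratio 1.23). *Peg3* stood at 1.27, at 1.04 without Pomc+ HFD cell 639, and at 0.74 from summed counts. *Nnat* (1.21), *Gnas* (1.21) and *Dlk1* (0.93) changed sides with the scaling, *Nnat* to 0.60 and *Dlk1* to 1.16 in the normalized values and *Gnas* to 0.45 without the genes counted in every cell. Each of these 3 also crossed 1 without 1 cell, *Nnat* to 0.885 without cell 650, *Gnas* to 0.861 without cell 645 and *Dlk1* to 1.19 without cell 660. In the other direction *Dlk1* was 0.586 without Pomc+ HFD cell 654 and 0.28 by medians over cells. *Snrpn* was nearly level at 0.95, and at 1.03 without Pomc+ CD cell 662.

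In Ghost cells 4 of the 8 genes had a lower mean on HFD, against 49.3% of all genes, and 2 were past 2-fold in opposite directions, against 59.9% of all genes past 2-fold in either direction. *Nnat* was higher on HFD by 3.03-fold, from 2.54 to 3.86 with 1 cell left out, and 1.60-fold from summed counts. *Gnas* was lower on HFD at 0.498. It was 0.306 without Ghost HFD cell 698 and 0.607 without Ghost CD cell 668, so it lies at the 2-fold limit rather than clearly past it. *Ndn* stood at 1.43 and stayed higher on HFD without any 1 cell and under each of the 3 scalings (2.1 in the normalized values). *Peg3*, *Snrpn*, *Dlk1*, *Magel2* and *Impact* lay from 0.80 to 1.11, and each crossed 1 when 1 cell was left out (*Peg3* 0.917 without cell 653, *Snrpn* 1.13 without cell 661, *Dlk1* 0.903 without cell 643, *Magel2* 1.19 without cell 709, *Impact* 1.05 without cell 659). *Magel2* was also higher on HFD in the normalized values (1.38), *Impact* without the genes counted in every cell (1.08), and *Dlk1* was lower there (0.95). The microglial marker sum was higher on HFD in both labels, as given above, and had Spearman coefficients of -0.33 (*Gnas*) to 0.12 (*Nnat*) with the 8 genes across cells. Its part in the diet ratios was not tested.

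Across the 76 cells the 8 genes varied together only in part. Among their 28 pairs the Spearman coefficient of CPM ran from -0.02 to 0.69 with a median of 0.26. These are descriptions over cells that share mice and library chemistry and differ in depth, and each gene alone had a coefficient of 0.31 (*Nnat*) to 0.56 (*Peg3*) with the number of genes counted in the cell. *Snrpn* and *Impact*, which lie on different chromosomes, made the closest pair at 0.69, with 64 cells holding both and 5 holding neither. The coefficient was 0.67 in Ghost and 0.69 in Pomc+ cells, 0.65 in the 71 cells with at least 1000 genes, and 0.54 once the genes counted in every cell were left out. The next pair, *Ndn* and *Snrpn*, stood at 0.51, and at 0.27 without the genes counted in every cell. *Ndn* and *Magel2*, the close neighbours, stood at 0.25, with 35 cells holding *Ndn* without *Magel2* and 3 the reverse.

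**Figure D4:**
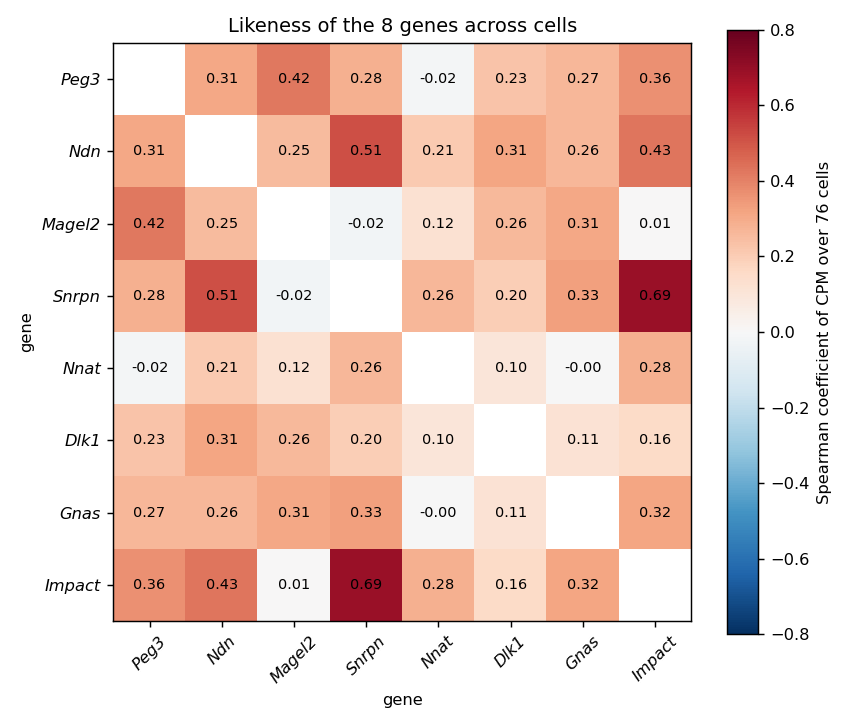
Spearman coefficients of CPM over 76 cells for each pair of the 8 genes, with the colour scale from blue (negative) to red (positive). *Snrpn* and *Impact* stand highest at 0.69, and *Magel2* with *Snrpn* lowest at -0.02.

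Of the 1582 other genes counted in at least 38 cells, the gene most like each of the 8 was sought by the same coefficient. *Impact* was closest to *Hspa8*, a heat shock cognate chaperone (0.72), with *Snrpn* in place 3. *Snrpn* was closest to *Zwint* (0.72), with *Impact* in place 9. *Magel2* was closest to *Snhg11*, a non-coding RNA of neurons (0.64). *Peg3* was closest to *Afdn* (0.59), *Ndn* to *Fxyd6*, a regulator of the sodium pump (0.59), *Nnat* to *Aes* (0.55), *Gnas* to *Zranb2* (0.55) and *Dlk1* to *Ndufc2*, a subunit of mitochondrial complex I (0.48). *Dlk1* therefore had the weakest best match. The 7 neuronal markers, summed, had a coefficient of 0.70 with *Snrpn* and 0.65 with *Impact*, but 0.05 with *Magel2*, 0.09 with *Dlk1* and 0.16 with *Nnat*.

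The imprinted neighbours of these genes gave further context. *Magel2* and *Snhg14*, the long non-coding transcript annotated between *Snrpn* and *Ube3a*, had a coefficient of 0.56, a pair singled out after its value was seen. Both were counted in 22 cells, only *Magel2* in 10, only *Snhg14* in 13 and neither in 31. It was 0.54 without the genes counted in every cell, 0.49 in Ghost and 0.61 in Pomc+ cells. *Snrpn* and *Snhg14*, which lie 6.74 kb apart, had a coefficient of 0.04. *Usp29* and *Zim1*, beside *Peg3*, were counted in 39 and 19 cells, and each of these cells also had *Peg3*. *Peg3* itself was counted in 68 of all 76 cells, so a large overlap says little. Their coefficients with *Peg3* were 0.38 and 0.43, and 0.18 and 0.26 without the genes counted in every cell. With the number of genes counted in the cell they were 0.67 and 0.63. At the *Dlk1* cluster, the maternally expressed *Meg3* had a coefficient of 0.10 with the paternally expressed *Dlk1*. Of the 76 cells, 37 had both, 14 *Dlk1* only and 19 *Meg3* only.

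**Figure D5:**
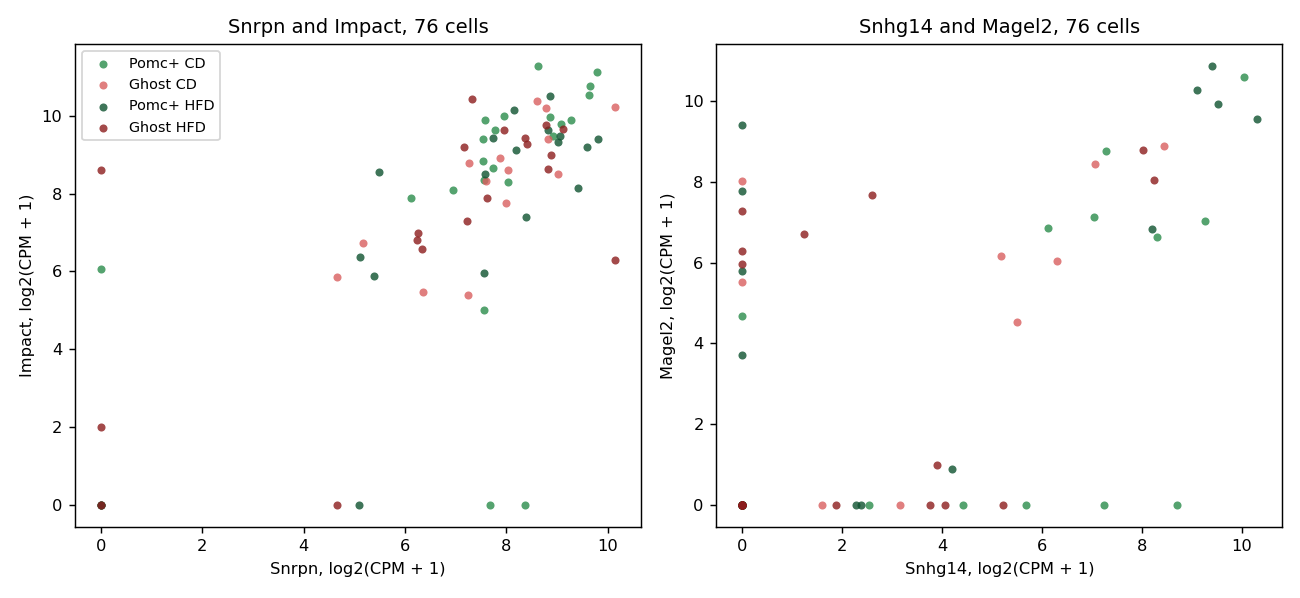
Level per cell, as log2(CPM + 1), of *Impact* against *Snrpn* (left) and of *Magel2* against *Snhg14* (right) in 76 cells, coloured by label and diet. Left, the 4 groups share a rising cloud (coefficient 0.69). Right, 31 cells lie at 0 for both genes, and the rest are spread along both axes (coefficient 0.56).

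Among 38 other imprinted genes, the 22 listed as paternally expressed held 15 that passed the filter. Of these, 11 had the lower and 4 the higher mean CPM in Ghost cells over both diets, again beside 56.2% lower of all genes. In the normalized values 13 were lower, where the median of all genes was also lower, at -0.64 on the log2 scale. *Snurf*, *Peg12*, *Mkrn3* and *Dio3* had 0 counts in every cell. Those counted in most cells were *Nap1l5* (72 cells, ratio 0.99), *Rasgrf1* (55 cells, 0.54) and *Peg10* (51 cells, 1.41). The 15 listed as maternally expressed held 12 that passed, 9 lower and 3 higher in CPM. In the normalized values, with the same lower median of all genes, 9 were lower. Those counted in most cells were *Meg3* (56 cells), *Asb4* (56 cells, 0.96) and *Ppp1r9a* (53 cells, 0.91). Ghost cells averaged 854 CPM of *Meg3* and Pomc+ cells 2192 CPM, a ratio of 0.39 that ran from 0.317 to 0.517 with 1 cell left out. The lowest ratios were those of *Snhg14* (38 against 154.9 CPM, 0.25) and *Sgce* (8.56 against 23.4 CPM, 0.37), the latter at 0.24 without Ghost CD cell 659. The highest were those of *Kcnk9* (27.7 against 5.19 CPM, 5.34) in 14 cells and *Zdbf2* (247 against 97.0 CPM, 2.54) in 41 cells, and the latter was 1.04 in the normalized values and 1.47 without Ghost CD cell 712. *Kcnk9* was 2.38 without Ghost CD cell 664 and 41.6 without Pomc+ HFD cell 719. *Peg10* was 0.948 without Ghost CD cell 684. *Grb10*, imprinted from a copy that depends on the tissue, stood at 0.92, and from 0.578 to 1.27 without 1 cell (684 or 662). Mean *Snhg14* was thus lower in Ghost cells, as was mean *Magel2*, and it was so on CD (0.33) and on HFD (0.18). *Snhg14* was named for its ratio over both diets, so its ratios on each diet are parts of the same values. Some cells were high in both genes. Pomc+ CD cell 632 had 1057 CPM of *Snhg14* and 1549.9 CPM of *Magel2*, and Pomc+ HFD cell 654 had 679 and 1878 CPM. Pomc+ HFD cell 670 had 1255 and 758 CPM. With 1 cell left out the *Snhg14* ratio ran from 0.166 (without Ghost CD cell 709) to 0.495 (without Pomc+ CD cell 632) on CD, and from 0.103 (without Ghost HFD cell 637) to 0.269 (without Pomc+ HFD cell 670) on HFD. On CD the *Magel2* ratio, by contrast, crossed 1 when 1 cell was left out.

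Partners of the 8 gene products were listed by pathway and counted in the same way. For the partners of *Magel2* and *Ndn* in the ubiquitin ligase, the retromer and the WASH complex, 5 of 5 had the lower mean in Ghost cells over both diets and on CD, but 2 of 5 on HFD, beside 56.2%, 55.2% and 57% lower of all genes. On CD 3 of the 5 were past 2-fold, beside 56.8% of all genes past it in either direction. On HFD 1 was past it in each direction, beside 56.2% of all genes. Over both diets, where 42.5% of all genes were past it, the WASH complex subunit *Washc1* was the only 1 (8.15 against 20.4 CPM, 0.40). The *Washc1* ratio stood at 0.765 without Pomc+ HFD cell 645. Of the 10 genes of Gs signalling beside *Gnas*, 6 were lower and 4 higher over both diets, beside the same 56.2% of all genes. *Prkaca*, a catalytic subunit of protein kinase A, was lower at 0.49 and *Pde4d*, which breaks down cyclic AMP, higher at 3.01 in 11 cells. The *Pde4d* ratio was 1.16 in the normalized values, 1.60 without Ghost HFD cell 715 and 8.53 without Pomc+ CD cell 686. Of the GCN2 route beside *Impact*, 3 of the 5 genes could be matched to a single identifier, of which *Eif2ak4* (0.67) and *Eif2s1* (0.97) were lower and *Atf4* (1.63) higher, the last at 0.90 in the normalized values. *Eif2ak4* was at 1.02 without Pomc+ HFD cell 672, and *Eif2s1* at 0.45 without Ghost CD cell 684. *Atp2a2*, the calcium pump that neuronatin is known to act on, stood at 1.21, at 0.52 in the normalized values and at 0.81 without Ghost CD cell 659. Of 5 Notch genes beside *Dlk1* only *Notch2* and *Notch3* passed the filter, in 6 and 8 cells. The partners given with values were named after these were seen.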

How the data were processed

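Patch-seq libraries of 76 cells were analysed. The deposited raw table holds whole-number counts per gene and cell, unnormalized. The submitters' processing notes name cutadapt 2.10, STAR 2.7.5a, DESeq2 and GRCm38 (mm10), while the counting program and annotation are not given in the sources used here. The deposited normalized table holds a signal, the count divided by 1 size factor per cell. Symbols matched 52073 of 56980 identifiers, and genes without a symbol took 36.6% of counts. Counts were scaled to CPM, and groups were compared by ratios of means over cells, without a test. Shares have exact Clopper-Pearson intervals and summed counts exact Poisson intervals, at 95%. Named genes are the 8 genes, *Snurf*, the most similar gene of each, and from the lists of other imprinted genes the 3 in most cells of each list and the 2 highest and 2 lowest ratios (at least 10 cells). Members and lists were chosen with earlier results of these data known. Alternatives were the normalized values, totals without the genes counted in every cell, medians, summed counts, only cells of 1000 or more genes with up to 20% mitochondrial counts, thinning to 40000 counts, blocks and leaving out each cell. Leaving out cells for the named genes of the lists, shares in cells of 40000 or more counts before thinning, and the pair coefficients over other cells or totals were added after seeing the data. Each library came from 1 patched cell, so doublets were not called. The calculation of ratios was run on simulated counts with known folds and Poisson error alone, which checks the calculation and not the reported ratios. Python 3.11.15, pandas 2.3.3, numpy 2.4.6, scipy 1.17.1 and matplotlib 3.10.9 were used.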

Additional observations from a re-analysis of the deposited data

Results flagged for a closer look

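For 2 genes the ratio of Ghost to Pomc+ mean CPM lay on opposite sides of 1 on the 2 diets under all 3 scalings. For *Ndn* it stood at 0.65 (CD) and 1.30 (HFD). For *Nnat* it stood at 0.57 (CD) and 1.43 (HFD). With each group being 1 sample of cells, these differences between diets were not tested. Opposite sides of 1 were looked for only among the listed imprinted genes. The share of all genes tested that lay on opposite sides was not computed. Whether 2 such genes are more than the background was therefore not tested. By medians over cells *Ndn* was higher in Ghost cells on both diets (1.39 on CD, 1.17 on HFD), and from summed counts *Nnat* was lower in Ghost cells on both (0.52 on CD, 0.86 on HFD).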

How the results depend on the processing

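Of 340 recomputed ratios, 291 stayed within 1.5-fold of the reported value, 49 moved by more, and no ratio past 2-fold turned its direction. Turns were counted only for ratios past 2-fold in CPM, which most were not. Ratios nearer 1 did turn. Ghost against Pomc+ cells, *Dlk1* on HFD turned in 4 of 6 settings, and *Nnat* over both diets and *Impact* on HFD in 3 of 6 each. These 6 settings do not include medians over cells or leaving out 1 cell. By medians *Nnat* over both diets (0.97) and *Impact* on HFD (1.03) also turned, while *Dlk1* on HFD did not (6.49). The deposited normalized values moved 18 of 40 ratios, medians over cells 11 of 36 and summed counts 10 of 40. The number of genes with the lower mean in Ghost cells went from 7 to 3 on CD by medians over cells, and from 5 to 3 on HFD both by medians and by thinning. The number lower on HFD in Ghost cells went from 4 to 2 by summed counts. With 1 cell left out, the numbers ran from 5 to 8 over both diets, 6 to 7 on CD and 5 to 6 on HFD, and in the diet comparisons from 2 to 5 in Pomc+ and 2 to 6 in Ghost cells. The share of Pomc+ cells with *Gnas* went from 78.6% to 57.1% when at least 5 counts were asked for. No paired analysis was possible because a cell number names a single cell and no number is shared between groups.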
